A study of Mus musculus with 2 samples.

Results

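The 49 genes described here encode the subunits, activators and assembly factors of the proteasome. They were every gene in the deposited count tables whose symbol begins with Psm followed by a letter from a to g and a number. That rule used no measured value, but it was chosen with earlier results of these data known. It gave 49 of 32285 genes. By function they comprised 7 genes of the alpha ring and 7 of the beta ring of the core particle, 2 core genes of restricted tissue use, 3 immunoproteasome subunits, 9 genes of the base, 8 of the lid, 6 activators and inhibitors, and 7 assembly factors. All were measured in embryonic stem cells from mice of strain C3H/HeSn-Paf/J, in 2 droplet single-cell RNA sequencing libraries, 1 per time point. Each library mixed 9 lines, 3 each with XX, XO and XY sex chromosomes, and cells were not assigned to lines here. The first library (time 1) was the initial, early-passage point and the second (time 2) followed 10 further passages. Both were kept on gelatin and irradiated embryonic fibroblasts, in medium with serum and leukaemia inhibitory factor, so every group described here shares those conditions and feeder cells can enter the libraries. No genotype other than the strain and the sex chromosomes was given, and the labels do not say whether the time points came from separate cultures.

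The proteasome is the protease that degrades proteins tagged with ubiquitin. Its core particle is a stack of alpha and beta rings, with the catalytic sites inside on the beta subunits Psmb5, Psmb6 and Psmb7. The regulatory particle caps the core: its base holds the ATPases Psmc1 to Psmc6, which unfold the substrate, and its lid holds the deubiquitinase Psmd14 with scaffold subunits. In cells exposed to interferon, and in immune cells, the catalytic subunits are replaced by Psmb8, Psmb9 and Psmb10, and the PA28 activator of Psme1 and Psme2 can take the place of the cap, an arrangement known for producing peptides for class I antigen presentation. Pluripotent cells are known for high proteasome activity.

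After filtering, 23284 cells remained at time 1 and 25535 at time 2, with median depths of 44488 and 50441 unique molecular identifiers (UMIs) per cell, and the libraries shared 160 cell barcodes. Levels are in CPM, the UMIs of a gene scaled to all UMIs of the summed cells. They count 3′ ends and are not divided by gene length, so a level was compared only with the same gene elsewhere. A difference is given as the log2 ratio of CPM plus 1, on which low genes appear less different than they are, and for a group of genes as the log2 ratio of their summed CPM. With 1 library per time point there was no test between time points or classes of cells. Intervals are exact Poisson 95% intervals on counts and cover counting error only. A gene is called higher or lower where the difference reached 1.2-fold and at least 1 of the groups had 10 CPM, and the share of all genes called the same way is given beside the first count.

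Cells were clustered without the proteasome genes and clusters were named from marker lists. Clusters were named pluripotent stem cell-like by judgement, after they were seen, from their level of pluripotent stem cell markers and where no marker of another class was among their 10 leading genes at 50 CPM or more. Most of the markers did not set these clusters apart: in the main cluster of time 1, led by Rhox9, 1 pluripotent stem cell marker and 2 trophoblast markers were at least 2-fold above the other cells. The clusters so named held 9577 cells at time 1 and 19681 at time 2. The summed level of 12 pluripotent stem cell markers was 10776 CPM there at time 1 and 7208 CPM at time 2, against 648 and 289.7 CPM in the Acta2-led cluster of fibroblasts. Summed fibroblast markers were at 5.74 and 5.32 CPM in pluripotent stem cell-like cells and at 2214 and 1712 CPM in fibroblast-like cells. Different clusters held most of the pluripotent class at each time: the Rhox9-led cluster held 8229 cells at time 1 and 756 at time 2, the Apoa2-led cluster 95 and 14313, the Jam2-led cluster 1221 and 2167, and the Nanos3-led cluster 32 and 2445. Primed epiblast-like cells, 5597 and 4300, likewise lay mostly in an Fgf8-led cluster at time 1 and a Car2-led cluster at time 2. Psmb8 was among the 10 leading genes of that Fgf8-led cluster. The 2 clusters led by Spry2, with 5912 cells at time 1 and 14 at time 2, met the same conditions (8171 CPM of the markers at time 1) but were left unnamed, a choice that bears on the immunoproteasome and PA28 values given further on.

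In pluripotent stem cell-like cells the regulatory particle stood higher at time 2, and the core did so by less. The summed level of all 49 genes was 9286 CPM at time 1 and 10973 CPM at time 2, a log2 ratio of 0.24 (95% interval 0.239 to 0.242), against a median of -0.03 over all genes at the same level. Of the 47 members with at least 10 CPM, 16 were higher and 6 lower at time 2, where 21.8% of all genes at that level were called higher and 27.3% lower. The 16 comprised 8 of the 9 base genes, 6 of the 8 lid genes, 1 of the 14 genes of the core rings and 1 immunoproteasome gene. With trimmed mean scaling in place of library size, which adds 0.149 to log2 ratios of this comparison before the 1 CPM is added, the counts were 24 higher and 4 lower of 46, beside 35.7% and 17.5% of all genes under that scaling, and 7 of the 14 genes of the core rings were among the higher ones. Of the 6 lower members, Psmb9 (-1.09, then below the minimum of 10 CPM) and Psmg3 (-0.15) were no longer called with that scaling. With doublets kept or members kept in clustering the calls of both Psmb8 and Psmb9, which lay near that minimum at time 1, ended, and 4 were lower.

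The base summed to 1517 CPM at time 1 and 2217 CPM at time 2, a log2 ratio of 0.55, and all 9 of its genes lay above 0. Psmc5, an ATPase on chromosome 11, stood at 173 CPM (172 to 175) before the further passages and at 299.5 CPM (299 to 301) after them. Its log2 ratio of 0.78 was the largest of the base. Psmd1, the large scaffold of the base (GRCm38 chr1:86064387-86139151, plus strand), was at 193 and 306 CPM, a log2 ratio of 0.67. The median over chromosome 1 genes was 0.31 in this comparison. The ATPases Psmc3 and Psmc4 followed at 0.66 and 0.65, with 143 and 227 CPM for Psmc3 and 145 and 229 CPM for Psmc4. Psmc1 was at 131 and 189 CPM, Psmc2 at 119 and 170 CPM and Psmc6 at 183.5 and 262 CPM, with log2 ratios of 0.52, 0.51 and 0.51. The ubiquitin receptor Psmd4 was at 262 and 338 CPM (0.36). Psmd2, the other scaffold of the base, had the lowest value, 168 against 197 CPM (0.23), and was not called.

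The lid summed to 1408 CPM at time 1 and 1962 CPM at time 2, a log2 ratio of 0.48, with 7 of 8 genes above 0. Psmd7, the partner of the deubiquitinase Psmd14 (GRCm38 chr8:107580381-107588464, minus strand), had the largest log2 ratio of any member called, 1.01, from 285 CPM (284 to 286) to 573 CPM (572 to 575). The median over chromosome 8 genes was 0.295 in this comparison. Psmd6 was at 144.5 and 213 CPM (0.56), Psmd13 at 132 and 181 CPM (0.46), and Psmd12 at 217 and 284 CPM (0.39). Psmd14 itself was at 129.8 and 159 CPM (0.29) and Psmd11 at 194 and 235 CPM (0.28). Psmd3 was not called, at 101 and 116 CPM (0.20). Psmd8 stood apart from the rest of the lid, at 205 CPM at time 1 and 199.6 CPM at time 2 (-0.04).

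Both rings of the core together summed to 5322 CPM at time 1 and 5830 CPM at time 2, a log2 ratio of 0.13. With library size scaling no alpha ring gene was called, while with trimmed mean scaling Psma5 (0.40), Psma7 (0.33), Psma6 (0.29) and Psma4 (0.28) were. With library size scaling the log2 ratios of the alpha genes ran from -0.02 for Psma2 (474 and 466 CPM) to 0.25 for Psma5 (237 and 282 CPM). Of the beta ring, Psmb5, the subunit with the chymotrypsin-like site (GRCm38 chr14:54614119-54618022, minus strand), was the 1 gene called, at 401.5 and 560.3 CPM, a log2 ratio of 0.48. The other 6 beta genes ran from -0.07 for Psmb2 (347 and 330.5 CPM) to 0.24 for Psmb3 (469 and 554 CPM). The catalytic Psmb6 and Psmb7 were at 0.13 and 0.04. With trimmed mean scaling Psmb3 (0.39) and Psmb6 (0.28) were called too.

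**Figure D1:**
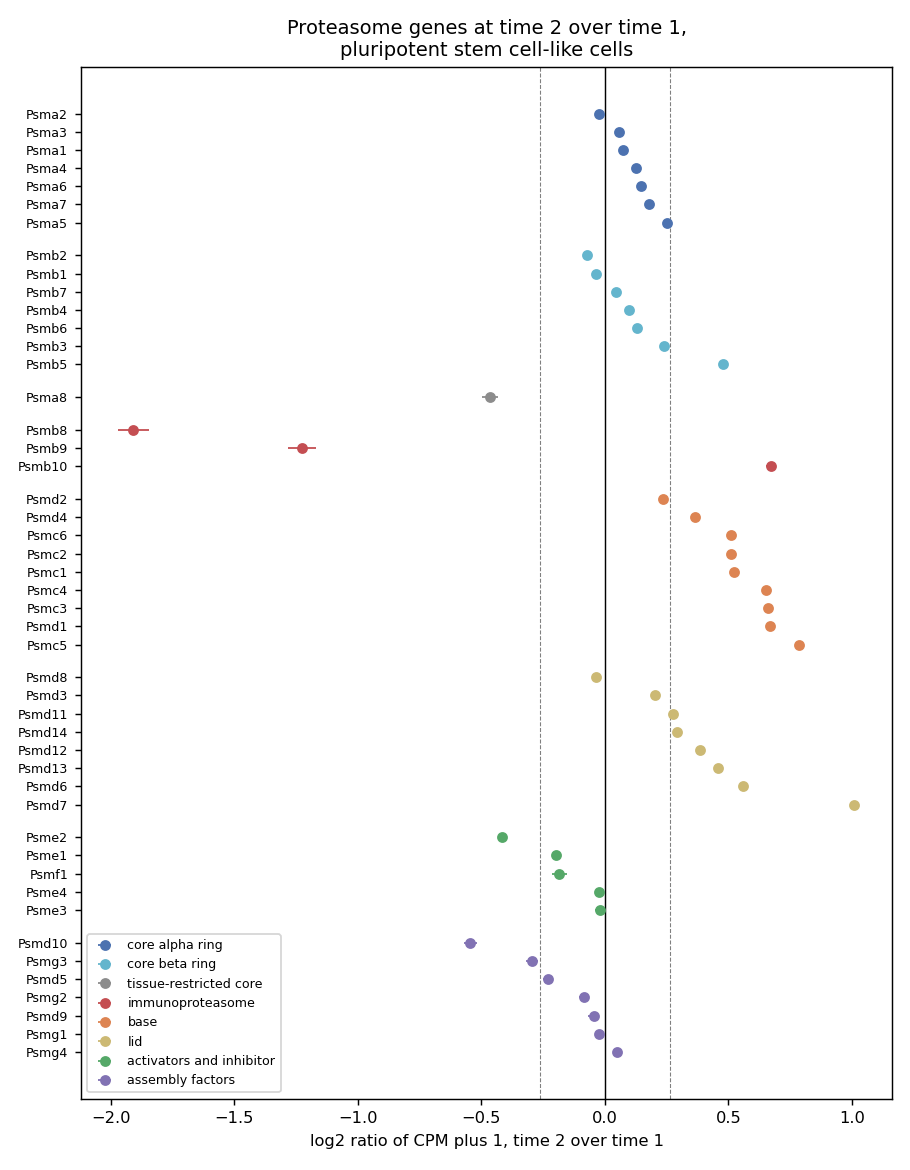
Log2 ratio of CPM plus 1, time 2 over time 1, on the horizontal axis for the 47 members with at least 10 CPM in pluripotent stem cell-like cells, grouped by subcomplex; points are single genes, bars the 95% counting intervals and dashed lines 1.2-fold. Base and lid genes other than Psmd8 (-0.04) lie to the right, up to 1.01 for Psmd7, alpha and beta genes between -0.07 and 0.48, and Psmb8 and Psmb9 far to the left.

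The immunoproteasome genes did not differ in the same direction. Psmb8, the immune counterpart of Psmb5 (GRCm38 chr17:34197721-34201454, plus strand), stood at 12.5 CPM (12.2 to 12.8) in the first library and 2.59 CPM (2.5 to 2.69) in the second, a log2 ratio of -1.91, or -2.27 without the added 1. Psmb9, the counterpart of Psmb6, was at 10.6 and 3.95 CPM (-1.23). Psmb10, the counterpart of Psmb7 (GRCm38 chr8:105935735-105938444, minus strand), was higher at time 2, at 59.5 CPM (58.8 to 60.1) against 95.4 CPM (94.8 to 95.9), a log2 ratio of 0.67. In cells without a chromosome gain, described further on, Psmb10 was at 55.6 and 52.2 CPM (-0.09), and in the Rhox9-led cluster at 63.4 and 68.9 CPM (0.12). With the Spry2-led clusters included, an alternative chosen after seeing the data, the log2 ratio of Psmb10 was 0.40, that of Psmb8 -2.58 and that of Psmb9 -1.41. As Psmb10 was the most counted of the 3, the sum of the set had a log2 ratio of 0.30 while its median was -1.23. The start of Psmb9 lies 211 bases from that of Tap1 on the opposite strand, and Tap1 was at 5.18 and 1.70 CPM. In all, 14 members overlap a gene on the other strand, and whether counting used strand is not given in the sources used here. Psma2, Psmd12 and Psme2b overlap a gene on the same strand.

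The Spry2-led clusters, found almost entirely at time 1, had higher levels of the immunoproteasome and PA28 genes than the named class at that time. Psmb8 was at 40.9 CPM (40.1 to 41.8) in them against 12.5 CPM, a log2 ratio of 1.63, and Psmb10 at 103 against 59.5 CPM (0.78). Psmb9 was at 16.2 against 10.6 CPM (0.57), Psme2 at 203 against 125.3 CPM (0.69) and Psme1 at 207 against 145 CPM (0.51). These 5 were the members called higher of 47, and Psma8 (-0.59), Psme4 (-0.32) and Psmd5 (-0.29) were lower, where 10.2% and 26.9% of genes were called. The median depth of these cells was 28891 UMIs. The time 1 levels of Psmb8, Psmb10, Psme1 and Psme2 thus depend on whether these cells are counted in the class.

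Among the activators and the inhibitor, Psme2, the beta subunit of PA28 (GRCm38 chr14:55587441-55591113, minus strand), was lower at time 2, at 125.3 CPM (124 to 126) against 93.5 CPM (93.0 to 94.1), a log2 ratio of -0.42. The alpha subunit Psme1 was at 145 and 126 CPM (-0.20), the inhibitor Psmf1 at 25.2 and 22.1 CPM (-0.18), and the nuclear activators Psme3 and Psme4 at -0.02 each. With the Spry2-led clusters included Psme2 was at -0.65 and Psme1 at -0.36, past the limit for a call. Psme3 was at 60.6 and 59.8 CPM and Psme4 at 81.4 and 80.1 CPM. Psme2b, a gene nearly identical to Psme2, was at 1.70 and 1.52 CPM, below the minimum, and reads of the pair may have been split, so both levels are uncertain. Of the assembly factors, Psmd10, on the X chromosome, was at 37.4 and 25.3 CPM (-0.54), where the median over X-linked genes was -0.5. Psmg3 was at 38.6 and 31.3 CPM (-0.30). The other 5 were not called and ran from -0.23 for Psmd5 to 0.05 for Psmg4 (137.2 and 142 CPM). Psma8, the alpha subunit known from the testis, was at 24.1 and 17.2 CPM (-0.46), and Psmb11, the subunit of the thymic cortex, at 0.043 and 0.050 CPM, or 23 and 58 UMIs in all. With primed epiblast-like clusters added to the class, Psma8 was no longer past 1.2-fold, while Psme1 was.

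Genes that work with the proteasome but lie outside the Psm symbols were mostly not called. Of 10 further parts and bound factors, Uchl5, a deubiquitinase of the base on chromosome 1, was higher at 89.3 and 129 CPM (0.53), Ecpas was lower at 22.3 and 18.2 CPM (-0.28), and 8 were not called. None of 4 measured genes for the transcription of proteasome genes was called: Nfe2l1, the factor known to raise proteasome genes when activity falls, was at 46.95 and 51.5 CPM (0.13), and Vcp, which acts on its processing, at 269 and 315 CPM (0.23). Of the ubiquilins, shuttles that carry tagged proteins to the proteasome, Ubqln2 was lower at 36.0 and 25.3 CPM (-0.49) and Ubqln1 at 71.8 and 59.6 CPM (-0.26). Ubqln2 lies on the X chromosome, where the median over genes was -0.5 in this comparison. Of the 9 genes for antigen presentation and interferon, 4 reached 10 CPM, and all 4 (H2-D1, H2-K1, Tapbp and Irf1) were lower at time 2, with log2 ratios from -0.96 for Irf1 to -1.10 for H2-D1.

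The base and the lid were higher at time 2 in every class of cells that could be compared. Over 8 named classes the log2 ratio of the summed base ran from 0.31 in endoderm-like to 0.55 in pluripotent stem cell-like cells, with all 9 genes above 0 in each. That of the lid ran from 0.30 in fibroblast-like to 0.48 in pluripotent stem cell-like cells, with at least 7 of 8 genes above 0. The alpha ring ran from -0.04 to 0.17 and the beta ring from -0.05 to 0.19. Fibroblast-like cells, which carry feeder markers, had a base of 1364 CPM at time 1 and 1876 CPM at time 2 (0.46). The pluripotent stem cell markers summed to 3574 and 2908 CPM in them, and the medians of chromosomes 1, 8 and X between time points were 0.10, 0.15 and -0.12. The part of RNA from pluripotent cells was not tested. There were 15 members higher and 3 lower of 45, where 19.6% and 19.1% of all genes were called. Their Psmc5 was at 138 and 221.5 CPM (0.68) and their Psmd7 at 240.3 and 405 CPM (0.75). The Acta2-led cluster of fibroblasts had a base at 0.59, where the median over all genes was 0.26. Cells of 1 cluster also differed between the libraries: in the Jam2-led cluster 12 members were higher and 2 lower of 45 (11.6% and 17.4% of all genes), with the base at 0.34 and the core at 0.07, and in the Rhox9-led cluster 8 were higher and 4 lower of 47 (11.4% and 9.73%), with the base at 0.28 and the core at 0.01.

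**Figure D2:**
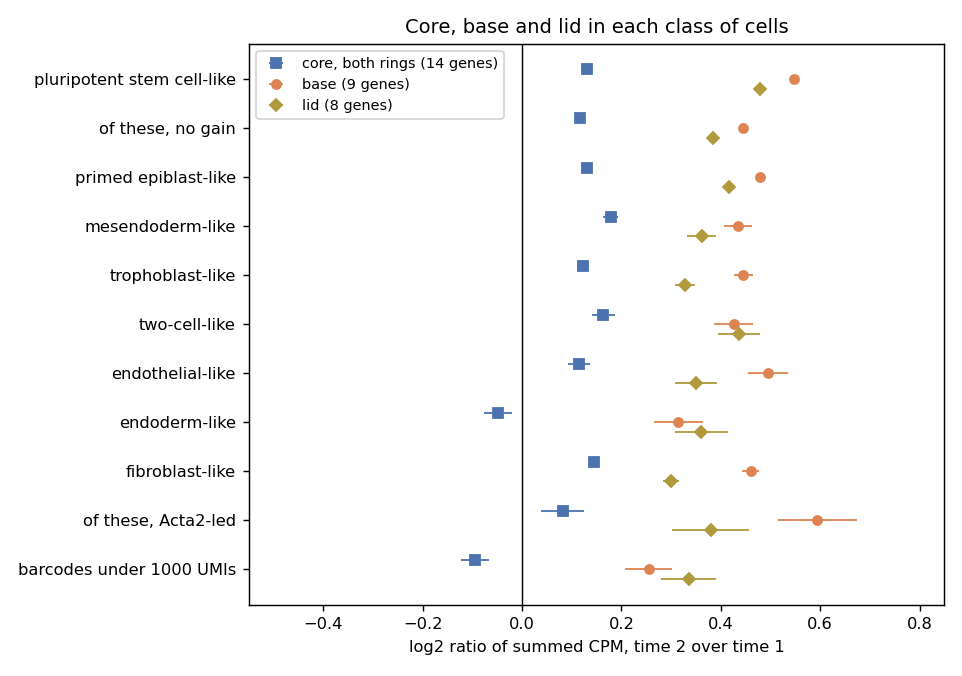
Log2 ratio of summed CPM, time 2 over time 1, on the horizontal axis for the core rings (14 genes), the base (9) and the lid (8) in each class of cells; bars are 95% counting intervals. Base and lid lie to the right of the core in each row, including the barcodes with under 1000 UMIs.

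Barcodes with under 1000 UMIs, taken here as an estimate of RNA free in the droplets, also differed between the libraries: the base was at 1560 and 1861 CPM (0.26), the lid at 1146 and 1446 CPM (0.34) and the core at 4766 and 4463 CPM (-0.09). Of 47 members, 12 were higher and 10 lower there, where 26.6% and 29.9% of genes were called. Psmb8 was at 30.5 and 11.7 CPM in these barcodes, above its level in pluripotent stem cell-like cells at both times, and the part of free RNA in the difference of Psmb8 was not tested. Whether these barcodes hold free RNA was not tested either. They numbered 4449 at time 1 and 7491 at time 2. Of all 145288 and 52242 barcodes, 25736 and 28249 passed the limits for cells before doublet removal. The other 115103 and 16502 barcodes, all with 1000 UMIs or more, were in neither set and were not used. At time 1 they outnumbered the set under 1000 UMIs by far more than at time 2. That set may thus cover different parts of the low-depth barcodes in each library, and the amount of free RNA per library was not tested. With 1 library per time point, passage, library and the mix of lines cannot be told apart.

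Promoter sequences from RefSeq (GRCm38.p6, 250 bases before to 50 after a start given by RefSeq) matched 41 of the 49 members. Shown are those of Psmb5 and Psmc4, a core and a base gene that were higher at time 2, and of Psmb8 and Psmb9, which were lower. Capitals mark a match to 1 of 3 short motifs, searched on both strands: TGACNNNGC (antioxidant response element core), the interferon-stimulated response element core (GAAA and GAAA with any 2 bases between them) and TTCNNNGAA (gamma-activated sequence core).
Psmb5 (chr14:54617946-54618245, minus strand): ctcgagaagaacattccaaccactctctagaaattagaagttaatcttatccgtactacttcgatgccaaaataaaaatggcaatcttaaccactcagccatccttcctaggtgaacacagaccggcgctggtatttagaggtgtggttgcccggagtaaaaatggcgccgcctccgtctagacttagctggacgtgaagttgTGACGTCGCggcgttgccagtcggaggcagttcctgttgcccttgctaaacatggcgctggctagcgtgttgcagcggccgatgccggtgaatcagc
Psmc4 (chr7:28050043-28050342, minus strand): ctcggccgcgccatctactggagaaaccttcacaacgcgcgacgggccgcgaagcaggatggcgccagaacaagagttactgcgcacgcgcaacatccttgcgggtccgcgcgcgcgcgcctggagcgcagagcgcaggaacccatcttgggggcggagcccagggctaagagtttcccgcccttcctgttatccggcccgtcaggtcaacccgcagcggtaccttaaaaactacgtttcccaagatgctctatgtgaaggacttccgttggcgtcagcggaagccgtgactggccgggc
Psmb8 (chr17:34197945-34198244, plus strand): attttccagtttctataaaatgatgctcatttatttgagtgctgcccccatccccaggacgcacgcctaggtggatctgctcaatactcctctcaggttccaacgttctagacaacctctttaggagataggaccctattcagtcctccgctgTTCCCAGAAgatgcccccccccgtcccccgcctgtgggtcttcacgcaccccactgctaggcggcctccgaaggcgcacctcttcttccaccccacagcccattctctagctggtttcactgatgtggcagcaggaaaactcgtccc
Psmb9 (chr17:34187281-34187580, minus strand): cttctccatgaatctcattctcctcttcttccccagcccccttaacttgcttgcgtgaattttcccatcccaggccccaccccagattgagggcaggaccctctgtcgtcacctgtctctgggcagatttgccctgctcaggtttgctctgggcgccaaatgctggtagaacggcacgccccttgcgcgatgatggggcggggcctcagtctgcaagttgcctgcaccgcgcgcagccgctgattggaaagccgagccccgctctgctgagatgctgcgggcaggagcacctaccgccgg

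The window of Psmb5 held TGACNNNGC starting 47 bases before its RefSeq start and that of Psmb8 held TTCNNNGAA starting 97 bases before its own. The windows of Psmb8 and Psmb9 lie inside the genes as placed by GENCODE, whose starts are at 34197721 and 34187764. The Psmb8 match thus lies after that GENCODE start. The distance from Psmb9 to Tap1 given above used the GENCODE start. None of the 3 motifs was found in the windows of Psmc4 and Psmb9. TGACNNNGC lay in the promoters of 6 members (Psmb5, Psmb6, Psmc6, Psmd12, Psmd9 and Psme4), 14.6% of the 41, against 13.99% of 27025 genes. The interferon-stimulated response element core lay in 5 members (Psmb3, Psmd4, Psmd9, Psme1 and Psmg4), 12.2% against 3.99%, and TTCNNNGAA in 3 (Psmb8, Psmd2 and Psmg1), 7.32% against 9.55%. Psmd9 held 2 of the motifs, which did not overlap. Starts are counted from the first base of each motif. A match describes the letters only, and RefSeq windows need not sit at the start used in these cells.

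Chromosome gains were then used to ask how members followed the copy number of their own chromosome. For each cell, the UMIs of a chromosome were divided by those of the autosomes other than 1, 8 and 14, from genes other than the members. A gain was called where this ratio was at least 1.3 times its median in pluripotent stem cell-like cells of time 1. Cells with no gain were under 1.3 for every autosome and under 1.2 for chromosomes 1, 8, 11 and 14. Cells between the limits for any of these chromosomes were left out. At time 2, 3060 pluripotent stem cell-like cells had no gain, 1043 a gain of chromosome 1 alone, 3039 of 8 alone, 5202 of 1 and 8, 247 of 1 and 14, and 3502 of 1, 8 and 14. Time 1 had 8043 cells with no gain and 765 with a gain of 8. Chromosome 1 carries Psmd1, chromosome 8 carries Psmd7 and Psmb10, chromosome 14 carries 6 members and chromosome 11 carries 9. Cells with no gain mostly had high X dosage (62.9% at time 1 and 76.4% at time 2) and cells with a gain of 1 or 8 mostly low X dosage, so the comparisons of gains of 1 and of 8 are also given in X-low cells alone, which left 556 cells with no gain at time 2. X-low cells had no UMI of 4 Y-linked genes and an X-linked share of UMIs under 1.2 times the median of cells with at least 2 such UMIs, and X-high cells had none either and a share at or above it.

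Gain of chromosome 8 at time 2 went with a higher Psmd7, at 399.7 CPM without and 568 CPM with the gain, a log2 ratio of 0.51, which equals the median of all chromosome 8 genes (0.51). Psmb10 was at 52.2 and 96.8 CPM, a log2 ratio of 0.88. Of 45 members, 5 were higher and 4 lower (16.4% and 18.8% of all genes). The others were Psme1 (0.57), Psmg2 (0.36) and Psme2 (0.32), which were higher, and Psmd10 (-0.72), Psme4 (-0.53), Psmg4 (-0.35) and Psmd3 (-0.27), which were lower. In sum, the 47 members on other chromosomes summed to a log2 ratio of -0.00. In X-low cells Psmd7 was at 427 and 578.5 CPM (0.44) and was the 1 member called of 45 (7.69% of genes higher, 5.89% lower). Psmb10 was then at 86.3 and 98.1 CPM (0.18) and was not called. At time 1 the gain went with Psmd7 at 270.3 and 426 CPM (0.66) and Psmb10 at 55.6 and 86.7 CPM (0.63), with 4 members higher and 6 lower of 47 (10.1% and 17%). In X-low cells at time 1 Psmd7 was at 294 and 424 CPM (0.53) and Psmb10 at 71.6 and 88.1 CPM (0.29), the 2 members called higher of 47 (7.41% of genes). The 4 called lower there (9.56%) were Psmb8 (-0.87), Psmb9 (-0.70), Psme2 (-0.42) and Psme1 (-0.30). In all cells at time 1 Psmc5 (0.30) and Psmc4 (0.27) were the other higher members. The 6 lower were Psmb8, at 12.8 and 5.43 CPM (-1.10), Psme2, at 129 and 86.3 CPM (-0.57), Psmd10 (-0.57), Psmb9 (-0.44), Psmg4 (-0.29) and Psma8 (-0.27).

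Gain of chromosome 1 went with Psmd1 at 240.6 and 329 CPM, a log2 ratio of 0.45, beside a median of 0.47 for the genes of chromosome 1. Of 45 members, 5 were higher and 2 lower (13.6% and 21.0% of genes): Psmb10, Psme1, Psme2 and Psmc5 were at 0.49, 0.44, 0.41 and 0.27, and Psmd10 and Psme4 were at -0.89 and -0.53. In X-low cells Psmd1, at 229 and 334 CPM (0.54), was the 1 member called (8.01% and 9.04% of genes). The other 48 members summed to 0.03 in all cells and to -0.01 in X-low cells. In cells with gains of 1 and 8, Psmd1 was at 334.5 CPM and Psmd7 at 649 CPM. Their log2 ratios over no gain were 0.47 and 0.70. There 5 members were higher and 3 lower (15.2% and 26.2%), and those other than Psmd1 and Psmd7 are given by count only. Thinned to 10000 UMIs, 58.57% of these cells had a UMI of Psmb10, also on chromosome 8, against 36.96% with no gain. In X-low cells Psmd1 and Psmd7 were at 0.55 and 0.60 and were the 2 members called higher of 45. Psme4 was lower there at -0.29 (11.2% and 17.1% of genes), and Psmb10 was not called higher.

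Gain of chromosome 14 on top of chromosome 1 went with all 5 measured members of chromosome 14. Psmb5 was at 513 CPM in cells with a gain of 1 and 716.5 CPM in cells with gains of 1 and 14, a log2 ratio of 0.48. The lid gene Psmd6 was at 180.1 and 253.5 CPM (0.49), the ATPase Psmc6 at 229 and 306 CPM (0.42), Psme1 at 125 and 187 CPM (0.58) and Psme2 at 97.4 and 153 CPM (0.64). Together they summed to 1144 and 1616 CPM, a log2 ratio of 0.50, with a median of 0.53 over the genes of chromosome 14. Of those genes, 96.0% were called higher. Of the members elsewhere none was higher and 2 were lower, Psmg2 (-0.31) and Psma8 (-0.30), where 9.16% of all genes were called higher and 5.29% lower. Chromosome 14 itself held 263 of the 639 genes called higher. The same addition to gains of 1 and 8 gave Psmd6 at 192 and 287 CPM (0.57), Psmc6 at 244 and 347 CPM (0.50), Psmb5 at 517 and 723 CPM (0.48), Psme1 at 114 and 148 CPM (0.38) and Psme2 at 84.1 and 102 CPM (0.28). No other member was called there (9.39% and 5.16% of all genes). Chromosome 14 held 256 of the 645 genes called higher there, 94.5% of its 271 genes. With a single gain limit over all autosomes in cells thinned to 10000 UMIs, Psme1 and Psme2 were at 0.26 and 0.13 when 14 was added to 1 and were no longer called. Psmb11, the sixth gene, was near 0 throughout.

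**Figure D3:**
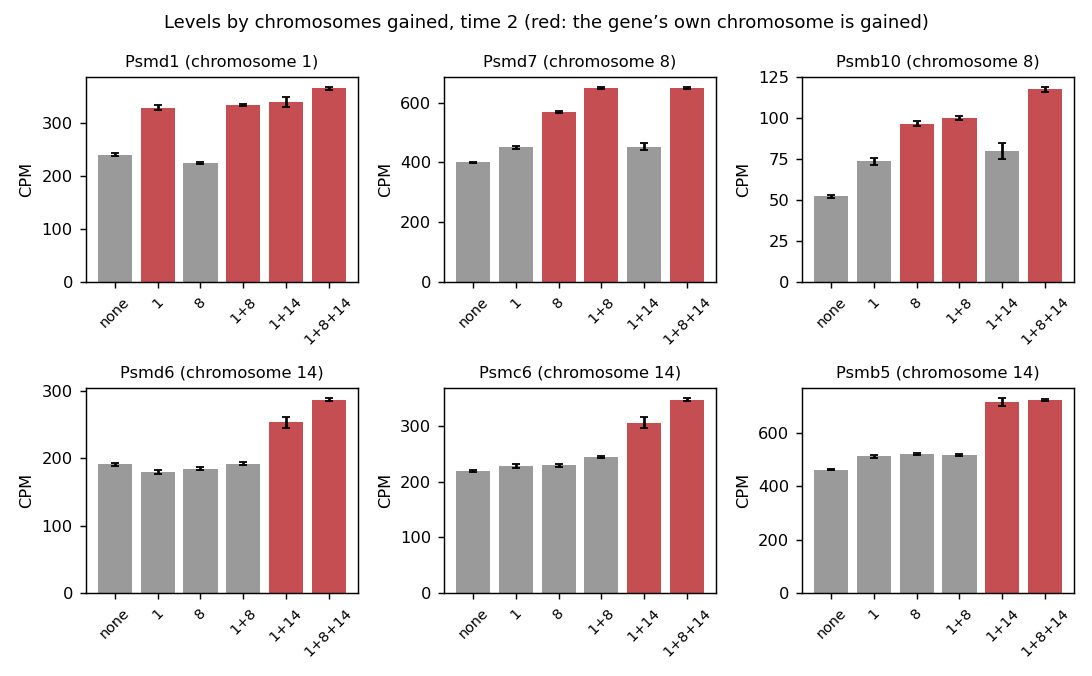
Level in CPM (bars, from 0, with 95% counting intervals) of 6 members in time 2 pluripotent stem cell-like cells with no gain or the gains named under each bar; red bars are classes in which the gene's own chromosome is gained. Psmb5 stands at 716.5 and 723 CPM in the classes with chromosome 14 and at 463 to 522 CPM in the others.

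Chromosome 11 gains were rare, in 125 cells at time 1, 51 at time 2 and 101 cells that also had gains of 1, 8 and 14. Of the cells with chromosome 11 alone, 16% at time 1 and 9.8% at time 2 were X-high, against 62.9% and 76.4% of cells with no gain, and the part of X dosage in their differences was not tested. Beside cells with no gain at time 1, all 8 measured members of chromosome 11 were higher, as were 83.8% of the genes of chromosome 11. The catalytic Psmb6 was at 447 and 812 CPM (0.86), Psmc5 at 167.5 and 304 CPM (0.86) and Psmb3 at 462.5 and 789 CPM (0.77). The lid genes Psmd11, Psmd12 and Psmd3 were at 191 and 290.3 CPM (0.60), 217 and 327 CPM (0.59) and 100.5 and 151 CPM (0.58). Psme3 was at 60.2 and 80.9 CPM (0.42) and Psme4 at 81.6 and 101 CPM (0.30). The 8 measured members and Psme2b together had a log2 ratio of 0.72, above the median of 0.49 for the genes of chromosome 11.

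Members on other chromosomes differed in these cells too: 14 of 39 were higher and 1 lower, where 16% and 17.5% of all genes were called. Those shares include chromosome 11 itself, which held 553 of the 1191 genes called higher. On chromosomes 1, 8 and 14, 6.19%, 8.98% and 10.9% of genes were called higher. Psmb8 was at 12.8 CPM without and 51.4 CPM with the gain (1.93), Psmb10 at 55.6 and 148.5 CPM (1.401), Psmb9 at 10.6 and 25.7 CPM (1.2), Psme2 at 129 and 236 CPM (0.87) and Psme1 at 146.5 and 219 CPM (0.58). The other 9 higher members lay between 0.28 and 0.36, with Psmg1 the highest, and Psma8 was lower at -0.44. All 5 measured genes of the antigen presentation list were higher too. At time 2, with 51 cells, 6 of 8 chromosome 11 members were higher, beside 81.2% of the genes of chromosome 11 (22.4% of all genes higher, 18.8% lower). Among the 6 were Psmb6 at 486 and 792 CPM (0.70) and Psmc5 at 256 and 414 CPM (0.69). Psme3 and Psme4 were not called there, at 0.15 and 0.01. Psmb8 was then at 2.61 and 10.2 CPM (1.63), Psmb10 at 52.2 and 132 CPM (1.32) and Psme2 at 72.9 and 163 CPM (1.15), with Psme1 (0.95), Psmg3 (0.34) and Psmg1 (0.27) also higher and Psma8 lower (-0.93).

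Added to gains of 1, 8 and 14, chromosome 11 went with 7 of its 8 members, from 0.33 for Psmd3 to 0.69 for Psmb6 (475 and 767 CPM), with a sum at 0.55, while Psme4 was at 0.15 (20.1% of all genes higher, 16.9% lower). Of the genes of chromosome 11, 82.7% were called higher. The 31 members on none of those chromosomes summed to -0.00, with Psmd10 (0.44), Psmg3 (0.34) and Psmf1 (0.31) higher and Psma8 lower (-0.30). Psme1 and Psme2, on chromosome 14 and gained in both classes, were at 148 and 247 CPM (0.74) and at 102 and 236 CPM (1.2). Psmb10 was at 118 and 153 CPM (0.38).

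**Figure D4:**
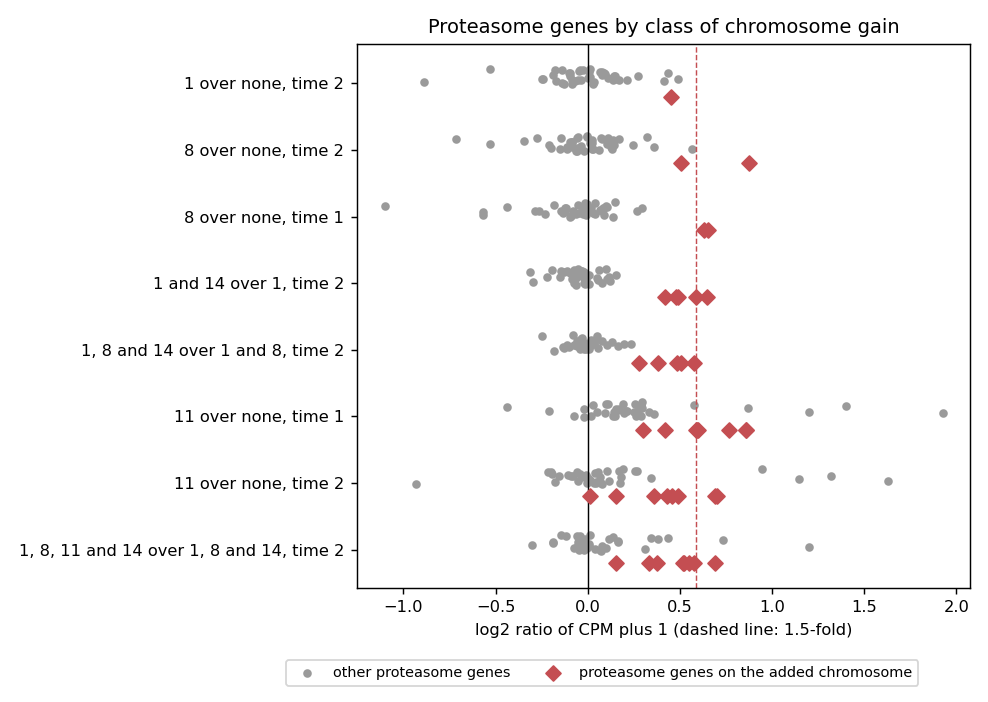
Log2 ratio of CPM plus 1 on the horizontal axis for each pair of gain classes; red diamonds are members on the added chromosome, grey points the other members with at least 10 CPM, and the dashed line is 1.5-fold. Diamonds run from 0.01 to 0.88 and most grey points lie near 0, with grey points up to 1.93 for chromosome 11 alone at time 1.

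The difference between time points was also present in cells with no called gain. Their 49 genes summed to 9242 CPM at time 1 and 10554 CPM at time 2 (0.19), with 17 higher and 5 lower of 47, where 20.1% and 21.0% of all genes were called. The base was at 0.45 with 8 of 9 genes higher, the lid at 0.38 with 7 of 8 higher, and the core at 0.12 with none called. Psmd7 was at 270.3 and 399.7 CPM (0.56) and Psmd1 at 192 and 240.6 CPM (0.33), against 1.01 and 0.67 over all pluripotent stem cell-like cells. Psme2 and Psme1 were lower in these cells by more than in all, at 129 and 72.9 CPM (-0.81) and at 146.5 and 91.8 CPM (-0.67). The other 2 higher members were Psme4 (0.45) and Psmg4 (0.31). Psmb10 was not called there (-0.09), while Psmb8 was at 12.8 and 2.61 CPM (-1.93). Of the cells with no gain, 62.9% at time 1 and 76.4% at time 2 were X-high. The parts of X dosage and of the mix of clusters in these differences were not tested.

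Cells without a gain were also compared by X dosage, and the shares of members called lay near or below those of all genes. Psmd10, the X-linked assembly factor also known as gankyrin, was at 44.4 CPM in X-high and 26.4 CPM in X-low cells at time 1, a log2 ratio of -0.73, and at 44.9 and 21.4 CPM (-1.04) at time 2. The medians over X-linked genes were -0.75 and -0.85. Of 47 members at time 1, 6 were higher and 2 lower in X-low cells (10.9% and 14.7% of genes), and of 45 at time 2, 5 were higher and 4 lower (15.7% and 18%). Psmb10 was at 48.3 and 71.6 CPM (0.56) at time 1 and at 43.9 and 86.3 CPM (0.96) at time 2, and Psmc5 at 146 and 214 CPM (0.54) and at 243 and 318 CPM (0.39). At time 2 Psme1 was at 83.7 and 117 CPM (0.48), Psme2 at 67.3 and 91.3 CPM (0.43) and Psme4 at 118.5 and 83.3 CPM (-0.50). The lines that these cells came from were not examined.

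Classes of cells were then compared within each library. In primed epiblast-like cells, which carry the markers of the epiblast after implantation, 6 members were higher and 4 lower than in pluripotent stem cell-like cells at time 1 (26.3% and 21.8% of genes), and 5 and 3 at time 2 (24.4% and 19.9%). Psmb8 was at 84.9 against 12.5 CPM at time 1 (2.67) and at 51.2 against 2.59 CPM at time 2 (3.86). Psmb10 was at 149 against 59.5 CPM (1.31) and at 201 against 95.4 CPM (1.07), and Psmb9 at 25.6 against 10.6 CPM (1.2) and at 11.2 against 3.95 CPM (1.303). Psme2 was at 299 against 125.3 CPM (1.25) and at 233 against 93.5 CPM (1.31), and Psme1 at 267 against 145 CPM (0.88) and at 231 against 126 CPM (0.87). Core, base and lid sums lay between -0.01 and 0.05 of those of pluripotent stem cell-like cells. Of the antigen presentation list, 5 of 6 measured genes were higher at time 1 and 5 of 5 at time 2.

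Mesendoderm-like cells, 212 and 279, had the highest Psmb8, Psmb10, Psme1 and Psme2 of the named classes. Their cluster, led by Lhx1, had 5 mesendoderm markers at least 2-fold above the other cells, and also 4 of endoderm and 3 of primed epiblast. Psmb8 reached 145 CPM (138 to 153) in the first library and 153 CPM (147 to 160) in the second, log2 ratios of 3.43 and 5.42 over pluripotent stem cell-like cells. Psme2 was at 393 and 417 CPM (1.64 and 2.14), Psme1 at 316 and 336 CPM (1.12 and 1.41), Psmb10 at 169 and 311 CPM (1.49 and 1.70) and Psmb9 at 21.4 and 11.5 CPM (0.95 and 1.34). Psma8 was at 1.396 and 0.729 CPM, a log2 ratio of -3.39 at both times. In all, 7 members were higher and 3 lower at time 1 (37.1% and 25.6% of genes), and 7 and 6 at time 2 (37.1% and 27.3%). All 6 measured genes of the antigen presentation list were higher at each time. Psmd7 and Psmd1 were lower than in pluripotent stem cell-like cells at time 2, at 396.5 and 233 CPM (-0.53 and -0.39). Of the 19681 pluripotent stem cell-like cells at time 2, 5202 had gains of chromosomes 1 and 8 and 3502 of 1, 8 and 14.

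Trophoblast-like cells, 917 and 225, had Psmb8 at 65.0 and 22.1 CPM (2.29 and 2.68) and Psme2 at 241 and 154 CPM (0.94 and 0.71), with 6 members higher and 6 lower at time 1 (33.9% and 22.9%), and 4 and 9 of 46 at time 2 (39.2% and 25.9%). Macrophage-like cells, 56 at time 1, had Psmb8 at 56.8 CPM (2.10), Psmb10 at 92.3 CPM (0.63) and Psmb9 at 19.5 CPM (0.82), with 5 members higher and 15 lower (29.5% and 34.1%), and all 5 measured genes of the antigen presentation list were higher. Endoderm-like cells had Psmb8 at 27.05 and 10.999 CPM, with 6 members higher and 6 lower at time 1 (28.8% and 27.3%), and 3 and 13 of 46 at time 2 (33.4% and 26.7%). Two-cell-like cells had it at 25.7 and 5.91 CPM, with 1 member higher and 5 lower at time 1 (15% and 20.9%), and none and 1 of 45 at time 2 (18.7% and 22.1%). Endothelial-like cells had it at 23.6 and 15.1 CPM, with 2 members higher and 4 lower at time 1 (31.5% and 25%), and 1 and 7 of 46 at time 2 (34.7% and 27%). These low levels lay at or below those of the barcodes under 1000 UMIs, 30.5 and 11.7 CPM, apart from endothelial-like cells at time 2. Psma8 was highest in pluripotent stem cell-like cells at time 1 (24.1 CPM). At time 2 it was at 17.2 CPM in them and at 17.5 CPM in the 63 two-cell-like cells, too close to rank. It was at 5.54 and 6.78 CPM in primed epiblast-like and at 4.42 and 5.92 CPM in trophoblast-like cells. Its level in the barcodes under 1000 UMIs was 18.2 and 14.8 CPM.

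**Figure D5:**
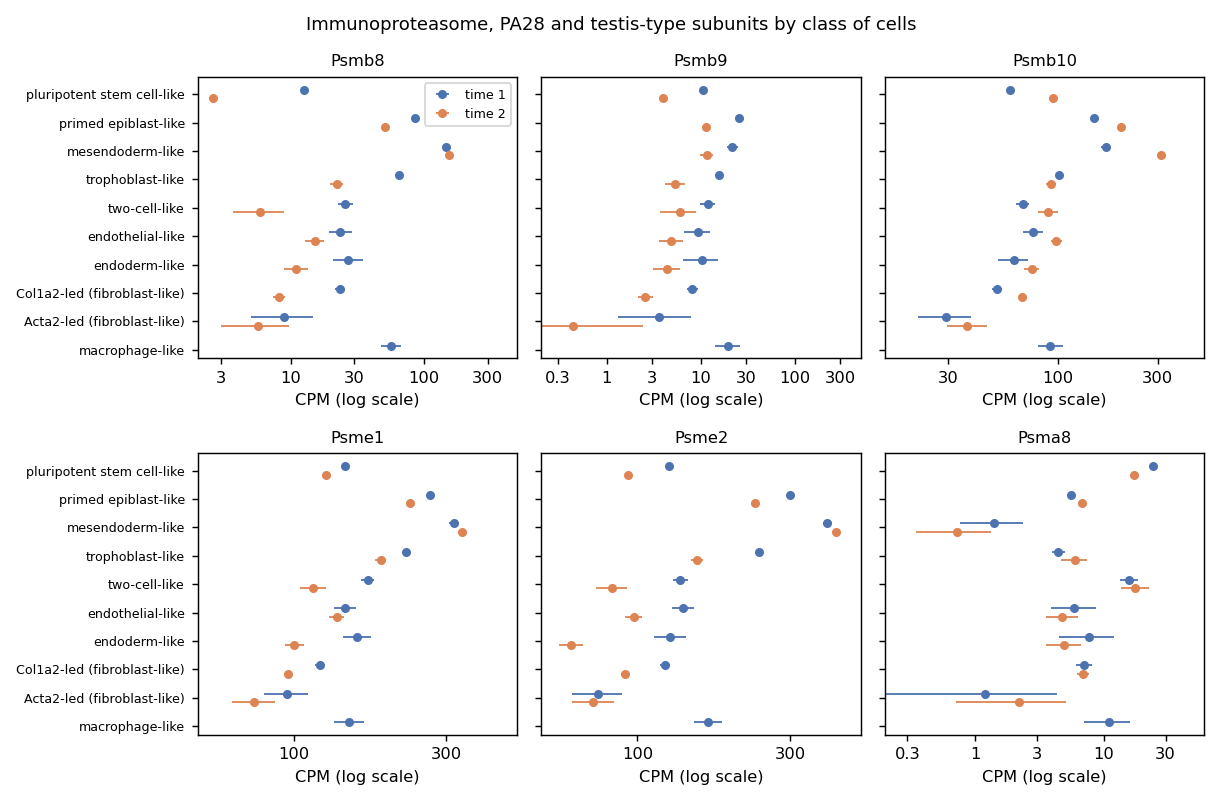
Level in CPM on a log axis of 6 members in each class of cells at time 1 and time 2; bars are 95% counting intervals. Psmb8, Psmb10, Psme1 and Psme2 are highest in mesendoderm-like cells (Psmb8 at 145 and 153 CPM), where Psma8 is at 1.396 and 0.729 CPM.

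Shares of cells with a UMI are given across classes for Psmb8. With every cell thinned to 10000 UMIs, which left out no cell, Psmb8 was found in 9.35% of pluripotent stem cell-like cells at time 1 and 2.34% at time 2, in 49.5% and 33.5% of primed epiblast-like cells, and in 55.2% and 60.6% of mesendoderm-like cells. Without thinning the shares were 29.3% and 9.34%, 84.9% and 70.7%, and 81.1% and 82.8%. The Psmb8 level within a single cluster differed between the libraries to unlike degrees. Fgf8-led cells were at 85.4 CPM at time 1 and 84.99 CPM at time 2, and Car2-led cells at 48.8 and 49.98 CPM, while trophoblast-like cells, which form 1 cluster, were at 65.0 and 22.1 CPM. The Fgf8-led cluster held 5526 primed epiblast-like cells at time 1 but 198 at time 2, and the Car2-led cluster 71 at time 1 and 4102 at time 2. Among pluripotent stem cell-like clusters at time 1, Psmb8 was at 14.1 CPM in the Rhox9-led and 4.79 CPM in the Jam2-led cluster (-1.38), with Psmb9, Psme1, Psmb10 and Psme2 at -1.21, -0.79, -0.78 and -0.59. There 5 members were higher and 6 lower of 47 (19.9% and 16.1% of genes). Within the Rhox9-led cluster Psmb8 was at 14.1 and 8.91 CPM at time 1 and time 2 (-0.60), and within the Jam2-led cluster at 4.79 and 1.29 CPM (-1.34), against -1.91 over all pluripotent stem cell-like cells.

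Fibroblast-like cells had lower levels of many members than pluripotent stem cell-like cells, near the share of all genes. At time 1, 2 members were higher and 23 lower (35.0% and 43.3% of all genes), and at time 2, 1 was higher and 22 of 45 lower (36.8% and 42.6%). The lid gene Psmd8 was higher at both times, at 468 against 205 CPM (1.19) and 464 against 199.6 CPM (1.21). The assembly chaperones Psmg1 to Psmg4 were lower at both times: Psmg1 was at 46.2 against 91.6 CPM (-0.97) at time 1, and Psmg4, Psmg2 and Psmg3 were at -0.90, -0.87 and -0.64. The core summed to 4569 against 5322 CPM (-0.22) and the base to 1364 against 1517 CPM (-0.15). Psmb8 was at 22.5 and 8.02 CPM and Psmb10 at 50.2 and 66.0 CPM. The pluripotent stem cell markers summed to 3574 CPM at time 1 and 2908 CPM at time 2 in these cells, of which 478 and 588 lay in the Col1a2-led cluster. The Acta2-led cluster, with those markers at 648 and 289.7 CPM, had 2 members higher and 35 lower of 47 at time 1, and 2 and 33 of 45 at time 2. Of all genes there, 20.3% were higher and 71.9% lower at time 1, and 25.9% and 64.3% at time 2. The Col1a2-led cluster had 2 higher and 22 lower of 47 (36.3% and 40.9%) and 1 and 21 of 45 (37.9% and 41.2%). Over pluripotent stem cell-like cells, Psmd8 was at 1.66 and 1.82 in the Acta2-led cluster and at 1.16 and 1.17 in the Col1a2-led cluster.

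Within single pluripotent stem cell-like cells the members took a median of 9206 CPM at time 1 and 10930 CPM at time 2, with interquartile ranges of 8193 to 10190 and 9926 to 11840. Across cells, the share of core UMIs and that of base and lid UMIs had a Pearson correlation of 0.65 at time 1 (n = 9577) and 0.53 at time 2 (n = 19681), and those of the immunoproteasome and PA28 had 0.56 and 0.22. These describe cells of 1 library each, which share depth and clusters.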

How the data were processed

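Single-cell RNA was measured in 2 libraries of pooled mouse embryonic stem cell lines. The authors deposited whole UMI counts per gene and barcode. Per the submitters' processing notes, bcl2fastq 2.20.0.422 and Cell Ranger 6.1.2 were used, with the builds mm10 and GRCm38. A barcode was kept as a cell from 18315 UMIs (time 1) or 18646 UMIs (time 2) upward, where it also had 1000 genes or more and no more than 10% of mitochondrial counts. The automatic doublet limit of Scrublet marked 1 and 0 barcodes, so the highest 10% of scores, 2452 and 2714 barcodes, were removed instead. Cells were clustered with scanpy 1.11.5 on 2000 variable genes other than the members (30 components, 15 neighbours, resolution 0.5), which gave 18 clusters. Counts were summed per class and divided by library size. The number of UMIs and of cells sets the precision, and intervals cover counting error only. Gene positions came from GENCODE M21. A class other than pluripotent stem cell-like was named where at least 3 of its markers reached 2-fold and 5 CPM, a rule set after the clusters were seen. The Mmp10-led cluster, with 25 cells at time 1 and 1 at time 2, met it for fibroblasts (7 markers) but was left unnamed. The Lhx1-led cluster met it for mesendoderm (5), endoderm (4) and primed epiblast (3), and the Kdr-led cluster for endothelium (4) and endoderm (4). The rule alone did not settle the names of those 2 clusters. The pluripotent stem cell-like class was named by judgement. Gains were called from 11229 genes that were neither members nor ribosomal.

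The members and lists were chosen with earlier results of these data known. For the time points in all pluripotent stem cell-like cells, the members named with values include those past 1.2-fold at 10 CPM or more. The highest and lowest log2 ratio of each subcomplex are named there too, with some other members that were not called. In the gain comparisons many members on chromosomes 1, 8, 11 and 14 are named with values, but not all. Psmb10 with gains of 1 and 8, and several members of chromosome 11, have no log2 ratio given. Some called members there are given by counts or ranges only. The immunoproteasome, activators and tissue-restricted members are named for some classes of cells. In comparisons between clusters or classes, and in repeats of a comparison in a subset of cells, other members past 1.2-fold are given by their counts. Counting was checked on simulated data. Alternatives included trimmed mean scaling with edgeR 4.0.16 (normalization factors only), other fold and CPM limits, gain limits and single clusters. Some genes of the lists are not reported here. Lipid tags that mark the lines were not analysed here.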

Additional observations from a re-analysis of the deposited data

Results flagged for a closer look

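Several genes lay past 1.2-fold in opposite directions under the same contrast in different cells or at different times. Each value is a log2 ratio of CPM plus 1, and none of these differences was tested.

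Psme2, the beta subunit of PA28, was at -0.57 in cells with a gain of chromosome 8 over cells with no gain at time 1 and at 0.32 at time 2. In X-low cells alone it was at -0.42 and 0.0016, and was not called at time 2. Psmd10, the X-linked assembly factor, was at -0.34 in the Acta2-led cluster over pluripotent stem cell-like cells at time 1 and at 0.38 at time 2.

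Among genes of the pathway lists, Nfe2l2 was at 0.34 for time 2 over time 1 in trophoblast-like and 0.35 in two-cell-like cells, and at -0.35 in endoderm-like cells. Ecpas was at 0.59 in endoderm-like cells, and at -0.28 in pluripotent stem cell-like and -0.27 in two-cell-like cells. For endoderm-like over pluripotent stem cell-like cells, Ecpas was at -0.28 at time 1 and 0.59 at time 2. H2-D1 was at 0.66 in cells with a gain of chromosome 11 over no gain at time 1 and at -0.33 at time 2, where 51 cells had that gain. H2-K1 was at 0.77 in the Acta2-led cluster over pluripotent stem cell-like cells at time 1 and at -0.41 at time 2. Irf1 was at -0.43 in X-low over X-high cells without a gain at time 1 and at 0.38 at time 2.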

How the results depend on the processing

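Values are log2 ratios of summed CPM unless a count is named. The sum of the 49 genes for time 2 over time 1 in pluripotent stem cell-like cells (0.24) was 0.39 with trimmed mean scaling, 0.22 with primed epiblast-like clusters added, 0.25 with doublets kept, 0.24 with a mitochondrial limit of 20% and 0.25 with members kept in clustering. Chosen after seeing the data, it was 0.14 in the Jam2-led cluster, 0.082 in the Rhox9-led cluster and 0.22 with the Spry2-led clusters. The counts of 16 higher and 6 lower were 6 and 2 at a fold of 1.5, 2 were lower in the Jam2-led cluster and 8 higher in the Rhox9-led cluster. The lower count was 4 with trimmed mean scaling, doublets kept or members kept in clustering, and 9 at a fold of 1.1. With trimmed mean scaling the calls of Psmb9 (-1.09, below 10 CPM) and Psmg3 (-0.15) ended. With doublets kept or members kept in clustering the calls of Psmb8 (-1.34 and -1.52) and Psmb9 (-1.04 and -1.06) ended at the minimum of 10 CPM. In cells with no gain the sum (0.19) was 0.20 with trimmed mean scaling, 0.18 with primed epiblast-like clusters, 0.20 with doublets kept, 0.20 with members kept in clustering and 0.20 with a single gain limit over all autosomes in cells of 10000 UMIs.

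With trimmed mean scaling the chromosome 1 member was at 0.49, those of chromosome 8 at 0.60 (time 2) and 0.72 (time 1) and those of chromosome 11 at 0.45 (time 2), and members elsewhere were at 0.062 (gain of 1), 0.038 (gain of 8) and -0.062 (14 added to 1). In X-low cells chromosome 1 was at 0.54 and chromosome 8 at 0.40 (time 2) and 0.48 (time 1), with members elsewhere at -0.014 and -0.030. With the single limit chromosome 8 was at 0.40 and chromosome 14 at 0.37 at time 2, with members elsewhere at 0.012 and -0.011. With a gain limit of 1.4 chromosome 8 was at 0.51 at time 2, with members elsewhere at 0.0091 (gain of 8) and -0.055 (14 added). With doublets kept chromosome 8 was at 0.52 at time 2, with members elsewhere at 0.018 (gain of 1) and -0.036 (14 added). With members kept in clustering chromosome 8 was at 0.68 at time 1. Chosen after seeing the data, adding 14 to gains of 1 and 8 left members elsewhere at -0.0066, and adding 11 to gains of 1, 8 and 14 put chromosome 11 at 0.55. For chromosome 11 at time 2, X-low cells, the limit of 1.4 and members kept in clustering left under 50 cells and gave no value.

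The immunoproteasome sum in fibroblast-like over pluripotent stem cell-like cells, -0.04 at time 1 and -0.41 at time 2, was -0.14 and -0.53 with trimmed mean scaling, -0.17 and -0.28 with doublets kept, and -0.98 and -1.24 in the Acta2-led cluster alone (chosen after seeing the data). It was 0.18 at time 1 with members kept in clustering, so its direction at time 1 depends on that choice. The cause of these moves was not tested. For 38 member values past 1.2-fold, all 281 values under these alternatives kept their direction. Some of them no longer reached the limit for a call. Over all single-member values under alternatives, 270 moved beyond the counting interval of the main value and 250 did not. For the sums and counts above, 56 alternative values stayed within the counting interval or, for counts, within 1.5 times. The other 49 did not. No paired analysis was possible because each time point had 1 library and no result came from a test. Depth limits Psmb8, Psmb9 and Psma8 in the rarer classes and leaves Psmb11 near 0.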
